A study of Mus musculus with 12 samples.

Results

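A set of 10 imprinted genes was followed through mouse livers exposed to Aza-TdC, a deoxycytidine analogue that depletes the DNA methyltransferase DNMT1 after incorporation into DNA. The genes were listed by symbol as textbook imprinted genes, and all 10 were found among the 55471 gene IDs of the count table. RNA-seq was made from livers of C57BL/6 mice in 4 groups of 3 samples. The groups were the MASLD diet (a diet that gives metabolic dysfunction-associated steatotic liver disease) without drug, the same diet with Aza-TdC at 0.1x, the same diet with Aza-TdC at 1x, and a standard diet (SD) without drug. Both drug groups therefore carried the diet as well, and no group had the drug on the standard diet. The sources used here do not give the absolute doses, the route and length of treatment, the diet's composition or the animals' age. They do not say whether each sample is its own animal either, so the p-values below measure the spread between samples and no more. Samples are called by the numbers in their titles. The question was whether the silent copy of an imprinted gene was released at either dose.

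An imprinted gene is read from one parental copy, and the choice is held by DNA methylation laid down in the egg or the sperm at a control region. DNMT1 copies that methylation at each cell division. In one class the methylated copy is the silent one, so that loss of methylation can add a second active copy. It holds the maternally expressed long non-coding RNAs H19 and Meg3, whose control regions are methylated on the paternal chromosome, and the paternally expressed genes Impact, Zrsr1, Peg3 and Plagl1, which are methylated on the maternal one. In the other class, of Igf2r, Grb10, Cdkn1c and H13, the maternal control region is methylated and the maternal gene copy is the main active one. At Igf2r and Cdkn1c an antisense non-coding RNA read from the unmethylated paternal copy, Airn or Kcnq1ot1, silences the gene in cis, and loss of methylation can lower the gene by letting both copies make that RNA. RNA from whole tissue does not tell the parental copies apart, so what was measured here is the total RNA of both.

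Totals ran from 30213048 to 41852606 counts per library. Within a library, part of the deviation of its genes followed the GC content and length of the transcripts. The share was 31.7% of the variance for 0.1x sample 3, while for 1x sample 2 it was 24.4% and for MASLD sample 5 17.5%. Tests were therefore also run with that trend removed, and the calls of members that this changed are given. The tissue label was met: 8 hepatocyte markers together held 99232 to 122324 CPM (counts per 1000000 of the scaled library) in MASLD livers and 198145 to 203761 CPM in SD livers. In whole liver, fewer cells of a type and less RNA per cell cannot be told apart.

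CpG dinucleotides are the sites that DNMT1 methylates, so the start regions of 4 members with differing CpG content are printed, with every CG in capitals. Each window has 300 bases, most of them before a transcription start listed by RefSeq and the last few after it, 5′ to 3′ on the gene's strand, from RefSeq on GRCm38.p6 (the assembly also named mm10). Of the 10 members, 7 were matched in the RefSeq table, with 9 windows. The 3 not matched were H19, Cdkn1c and Impact. The Igf2r window (chr17:12769657-12769956, minus strand) holds 34 CpG. The Plagl1 window (chr10:13090582-13090881, plus strand) lies at a start inside the annotated gene, well past its first base, and holds 26. The Peg3 window (chr7:6730370-6730669, minus strand) holds 13, and that of Zrsr1 (chr11:22971755-22972054, plus strand) holds 10.
Igf2r: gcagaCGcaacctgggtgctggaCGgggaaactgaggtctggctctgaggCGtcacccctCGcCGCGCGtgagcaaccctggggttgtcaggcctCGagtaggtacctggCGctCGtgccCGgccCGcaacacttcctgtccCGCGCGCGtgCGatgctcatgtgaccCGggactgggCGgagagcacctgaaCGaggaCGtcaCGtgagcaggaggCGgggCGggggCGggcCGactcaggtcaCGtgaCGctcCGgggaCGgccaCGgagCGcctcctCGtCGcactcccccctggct
Plagl1: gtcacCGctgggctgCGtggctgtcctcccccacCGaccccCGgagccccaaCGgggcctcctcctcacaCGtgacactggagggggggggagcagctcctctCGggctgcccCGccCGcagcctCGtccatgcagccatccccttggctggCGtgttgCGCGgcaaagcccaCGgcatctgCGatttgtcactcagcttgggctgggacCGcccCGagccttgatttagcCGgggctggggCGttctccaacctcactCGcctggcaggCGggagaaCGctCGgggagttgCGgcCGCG
Peg3: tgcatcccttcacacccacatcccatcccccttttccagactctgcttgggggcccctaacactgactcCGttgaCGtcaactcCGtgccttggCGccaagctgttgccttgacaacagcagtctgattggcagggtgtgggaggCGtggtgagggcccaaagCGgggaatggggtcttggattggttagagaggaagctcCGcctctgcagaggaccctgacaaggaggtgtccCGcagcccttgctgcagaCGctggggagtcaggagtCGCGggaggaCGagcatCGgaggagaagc
Zrsr1: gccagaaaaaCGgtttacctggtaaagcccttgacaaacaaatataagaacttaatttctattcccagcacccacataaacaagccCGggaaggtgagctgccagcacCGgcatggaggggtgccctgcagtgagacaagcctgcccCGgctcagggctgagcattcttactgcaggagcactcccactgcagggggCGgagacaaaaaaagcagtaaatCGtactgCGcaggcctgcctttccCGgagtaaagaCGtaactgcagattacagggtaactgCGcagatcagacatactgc

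The median over all 32851 RefSeq windows of this length was 7 CpG. At least as many CpG as in the window of Igf2r were held by 7.73% of all windows, as many as in Plagl1 by 16.9%, as many as in Peg3 by 37.9% and as many as in Zrsr1 by 43.5%. The other matched members were Grb10, with windows of 45 and 9 CpG, H13 with 21, and Meg3 with 13 and 1. These letters say where methylation could sit. Methylation itself was not measured in these files, and a gene's imprint control region need not lie in its start window.

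With the counts as deposited, no tested member passed as higher at either dose. H13 alone did so, at 0.1x, when the trend with GC content and length was taken out or when 0.1x sample 3 was left out. After a filter on low counts 8 of the 10 could be tested, and H19 and Meg3 were too low for the fit. At 0.1x against MASLD, 1 of 8 passed an adjusted p under 0.05, against 13.2% of all 13866 genes tested (6.08% higher and 7.09% lower), and it was a fall, of Igf2r. At 1x against MASLD 0 of 8 passed, against 3.11% of all genes, in edgeR's quasi-likelihood test, and 0 in DESeq2. At an unadjusted p under 0.05 the number at 1x was 1, Impact, which was lower. Between the doses 0 of 8 passed, against 13% of all genes, with 0 at an unadjusted p under 0.05 and 0 in DESeq2. The median log2 fold change of the 8 was −0.15 at 0.1x and −0.16 at 1x, beside −0.022 and −0.0048 over all genes tested. With the trend removed these medians were −0.013 and −0.15, beside −0.035 and −0.0085 over all genes.

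How large a rise could have been missed is given by the 95% interval of each log2 fold change, read against 1, a doubling, which is what a second copy as active as the first in every cell would give. At 0.1x the upper end lay below a doubling for 8 of 8 tested members. At 1x it did so for 7 of 8, all but Plagl1. As a limit on release it applies to Impact, Zrsr1, Peg3 and Plagl1, whose methylated copy is the silent one. In Igf2r, Grb10, Cdkn1c and H13 the main active copy is the methylated one. For these the limit bounds a rise and cannot test release. The interval held both 0 and a halving for Plagl1 at both doses and for Peg3 at 1x, so these changes remained unresolved at this depth. For Plagl1 at 1x it held a doubling as well. With the trend removed the Peg3 interval at 1x was −0.99 to −0.018, which held neither 0 nor a halving. A rise in a minor share of the cells would be smaller than a doubling and is not covered by these limits. The limits are on total RNA, so a second active copy offset by a fall in the gene's other RNA is not covered either. Whether such a fall took place was not tested.

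**Figure D1:**
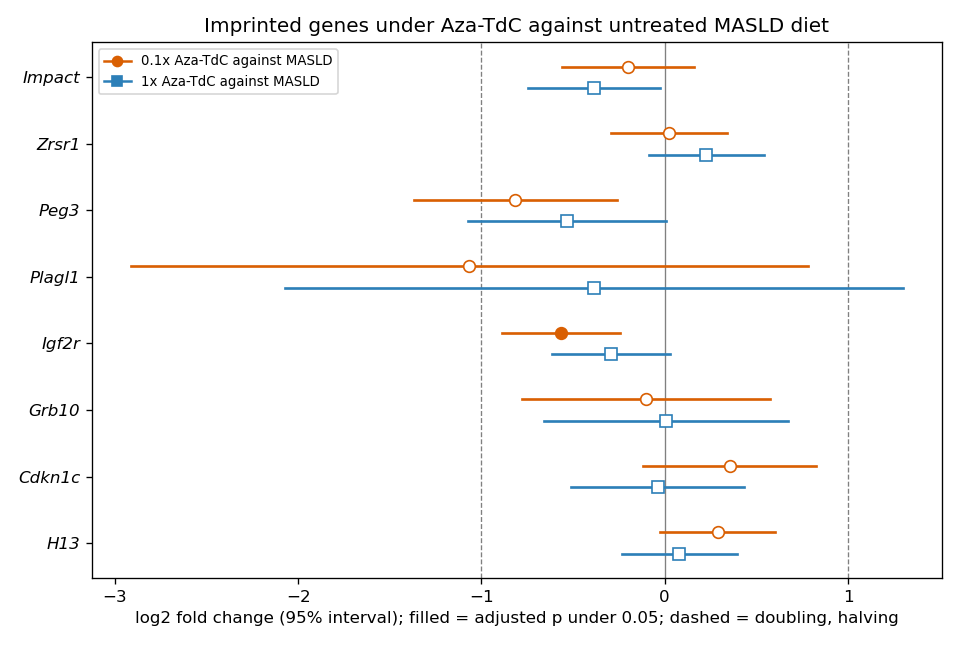
Log2 fold changes of the 8 tested members under Aza-TdC against untreated MASLD livers, at 0.1x (circles) and 1x (squares), with 95% intervals from edgeR; filled symbols passed an adjusted p under 0.05 and dashed lines mark a halving and a doubling. The filled symbol is Igf2r at 0.1x, at −0.57, and the interval that crosses a doubling is that of Plagl1 at 1x, which ends at 1.30.

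H19 (ENSMUSG00000000031, chromosome 7, 142575529 to 142578143) is a long non-coding RNA of fetal liver that is shut down after birth. MASLD samples 3, 4 and 5 had 12, 27 and 10 counts. At 0.1x samples 1, 3 and 4 had 0, 0 and 1 count, and at 1x samples 2, 4 and 5 had 3, 8 and 6. SD samples 3, 4 and 5 had 0, 0 and 1. The groups at 0.1x and on SD lay at the floor, the 1x samples between, and no drug sample reached the lowest MASLD sample. Over a group, 1 count at 0.1x stood against 49 in MASLD, a CPM ratio of 0.0241 with a 95% counting interval of 0.000599 to 0.141. At 1x 17 counts stood against 49 in MASLD, a ratio of 0.308 (0.166 to 0.544), and 17 at 1x against 1 at 0.1x, a ratio of 12.7 (2.0 to 532). On the diet 49 counts in MASLD stood against 1 in SD, a ratio of 41.4 (7.09 to 1669). These intervals cover counting error only. Without 0.1x sample 1 or 3 the ratio at 0.1x was 0.0365 or 0.0366, and without sample 4 no count was left in that group.

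No test of H19 is given, since it passed a lower filter only through the MASLD libraries where it was high. Igf2, its reciprocally imprinted neighbour that codes for a fetal growth factor, had 1 count in all 12 libraries together, in 1x sample 2. The H19 level was below 1 CPM in every library, and at both doses its counts lay below those of MASLD livers, not above them.

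Meg3 (ENSMUSG00000021268, chromosome 12, 109541001 to 109571726), a long non-coding RNA, was too low to judge. It had 8 counts in 0.1x sample 1 and 2 counts in SD sample 5, and 0 in the other 10 libraries. The 3 samples at 1x had 0 counts, where 3 counts, the limit that a count of 0 allows, would stand for 0.0630 to 0.0793 CPM. The 8 counts at 0.1x sat in a single library, while the 3 MASLD libraries held 0, so no fold is given for them. Of its exonic bases 1228 are shared with Gm26906, a long non-coding RNA on the opposite strand, and without the strand setting of the counting reads of the pair cannot be told apart there. Rian, a non-coding RNA of the same cluster, had 1, 0 and 1 counts at 0.1x, 2, 7 and 1 at 1x, 0, 6 and 0 in MASLD livers, and 6, 13 and 12 in SD livers. Mirg, another, had 1 count in MASLD sample 3 and none elsewhere. Dlk1, the paternally expressed ligand-like gene of the cluster, had 9, 2 and 7 counts at 0.1x and 2, 0 and 2 at 1x, against 0, 6 and 1 in MASLD livers.

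**Figure D2:**
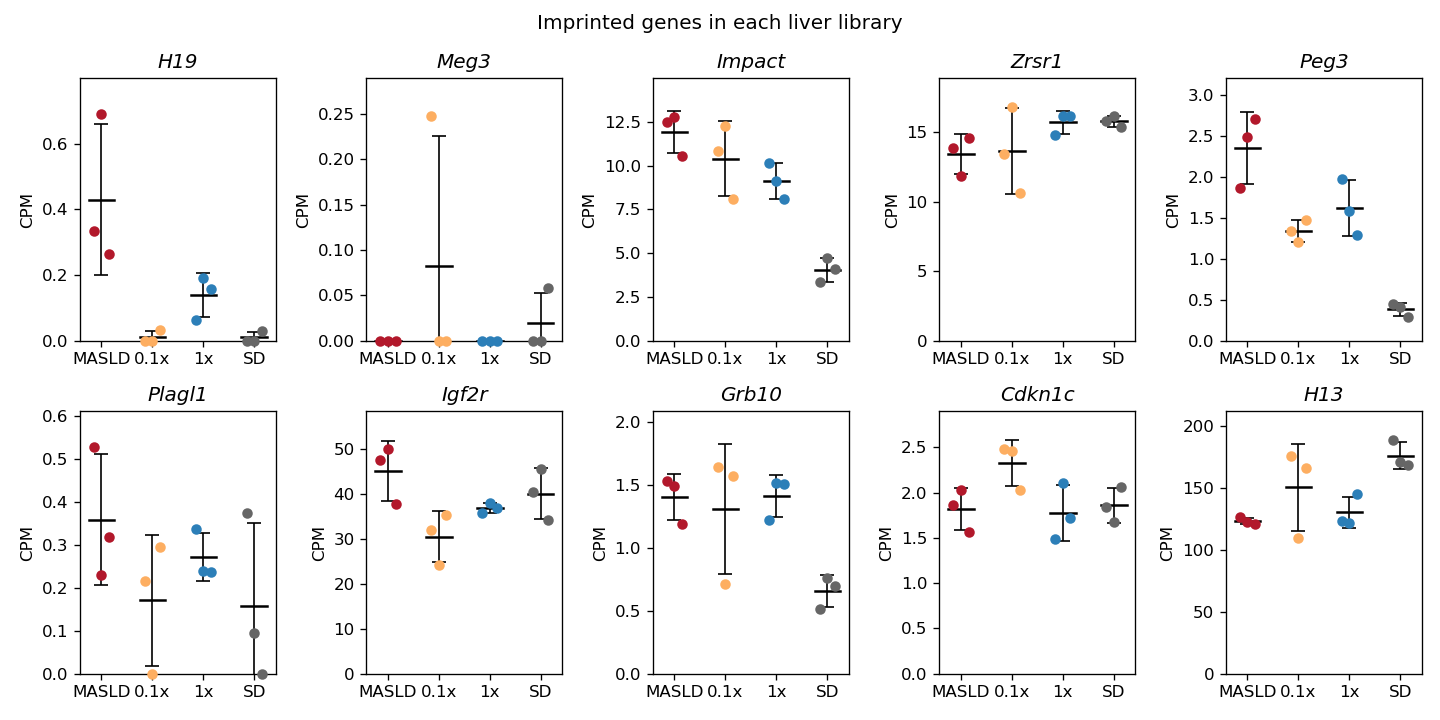
CPM of the 10 imprinted genes in each library; points are libraries, horizontal lines are group means and bars are SD over 3 samples (cut at 0), and each panel has its own scale from 0. H19 is highest in the 3 MASLD libraries, Peg3 and Impact are lowest in the 3 SD libraries, and Meg3 is at 0 in 10 of 12 libraries.

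Peg3 (ENSMUSG00000002265, chromosome 7, 6703892 to 6730431), a paternally expressed zinc finger gene, was lower in each 0.1x sample than in any MASLD sample. It had 1.33, 1.20 and 1.47 CPM in 0.1x samples 1, 3 and 4. It had 1.98, 1.58 and 1.29 CPM in 1x samples 2, 4 and 5. Untreated MASLD samples 3, 4 and 5 had 1.86, 2.49 and 2.70 CPM. The 0.1x and MASLD samples did not overlap, while 1x sample 2 lay above the lowest MASLD sample. The difference at 0.1x was −0.82 ± 0.26 (interval −1.37 to −0.26) and missed the threshold in edgeR (adjusted p = 0.0513). It passed in DESeq2 (adjusted p = 0.0370) and with a filter at a mean of 1 CPM (adjusted p = 0.0390). Once the trend was taken out it was −0.44 (adjusted p = 0.315). At 1x it was −0.53 ± 0.25 (interval −1.07 to 0.0052, adjusted p = 0.298).

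Impact (ENSMUSG00000024423, chromosome 18, 12955852 to 12992950) codes for an inhibitor of the kinase GCN2, which senses amino acid shortage. It had 10.8, 12.3 and 8.09 CPM in 0.1x samples 1, 3 and 4, and 10.2, 9.14 and 8.08 CPM at 1x (samples 2, 4 and 5), against 12.5, 12.8 and 10.6 CPM in untreated MASLD livers (samples 3, 4 and 5). All 1x samples were below all MASLD samples, and the 0.1x samples overlapped them. The log2 fold change was −0.39 ± 0.17 at 1x (interval −0.75 to −0.025, unadjusted p = 0.0376, edgeR adjusted p = 0.256) and −0.20 ± 0.17 at 0.1x (−0.56 to 0.16, adjusted p = 0.451). Neither passed.

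Zrsr1 (ENSMUSG00000044068, chromosome 11, 22972005 to 22976496) is a retrogene that codes for a splicing factor and lies within an intron of Commd1. It had 13.4, 16.8 and 10.6 CPM in 0.1x samples 1, 3 and 4, and 14.8, 16.2 and 16.2 CPM at 1x (samples 2, 4 and 5), against 13.9, 11.8 and 14.6 CPM in untreated MASLD livers (samples 3, 4 and 5). The 1x samples lay just above the MASLD samples, and the 0.1x samples lay on both sides of them. The difference was 0.23 ± 0.15 at 1x (interval −0.087 to 0.54, adjusted p = 0.483) and 0.023 ± 0.15 at 0.1x (−0.29 to 0.34, adjusted p = 0.936), so a doubling lay outside both intervals. Reads may be shared with its close relative Zrsr2. In the annotation 412 exonic bases of Zrsr1 overlap Commd1 on the opposite strand, and the strand setting of the counting is not given, so reads of the pair cannot be told apart there.

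Commd1, the host gene, codes for a copper-handling protein and is imprinted in some mouse tissues. It had 18.2, 24.5 and 16.5 CPM in 0.1x samples 1, 3 and 4, and 7.44, 11.9 and 8.80 CPM at 1x (samples 2, 4 and 5), against 14.1, 12.4 and 10.8 CPM in untreated MASLD livers (samples 3, 4 and 5). Every 0.1x sample was above every other library on the MASLD diet. In SD samples 3, 4 and 5 Commd1 had 16.8, 15.3 and 18.0 CPM, which overlapped the 0.1x samples. MASLD livers differed from SD livers by −0.43 ± 0.18 (edgeR adjusted p = 0.0889), and by −0.55 with the trend removed (adjusted p = 0.0381). Commd1 rose at 0.1x against MASLD by 0.67 ± 0.18 (edgeR adjusted p = 0.0287; 0.77 with the trend removed, adjusted p = 0.0400) and was lower at 1x than at 0.1x by −1.07 ± 0.18 (adjusted p = 0.00574). The call at 0.1x ended when any 1 of the MASLD libraries or 0.1x sample 3 was left out (adjusted p of 0.0535 to 0.1097), while the difference between the doses passed in 12 of 12 runs with a library left out.

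Plagl1 (ENSMUSG00000019817, chromosome 10, 13060504 to 13131694), a zinc finger transcription factor that restrains cell growth, passed the filter on few counts. It had 7, 0 and 9 counts in 0.1x samples 1, 3 and 4, and 16, 10 and 9 counts at 1x (samples 2, 4 and 5), against 19, 9 and 12 counts in untreated MASLD livers (samples 3, 4 and 5). The groups overlapped. At 0.1x the difference was −1.06 ± 0.87 (interval −2.91 to 0.78) and at 1x −0.39 ± 0.79 (−2.07 to 1.30), so neither a halving nor, at 1x, a doubling was outside the interval.

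Igf2r (ENSMUSG00000023830, chromosome 17, 12682406 to 12769664), the receptor that carries IGF2 and lysosomal enzymes to the lysosome, was the member that passed under the drug. It had 31.8, 24.1 and 35.2 CPM in 0.1x samples 1, 3 and 4. It had 35.6, 37.8 and 36.9 CPM in 1x samples 2, 4 and 5. MASLD samples 3, 4 and 5 had 47.5, 50.0 and 37.6 CPM. Each 0.1x sample was below each MASLD sample, with a narrow gap, and the 1x samples overlapped MASLD. Igf2r fell at 0.1x against MASLD by 0.57 ± 0.15 on the log2 scale (interval −0.89 to −0.25, edgeR adjusted p = 0.0269). At 1x the difference was −0.29 ± 0.15 (−0.61 to 0.027, adjusted p = 0.340), and between the doses 0.27 ± 0.15 (adjusted p = 0.235).

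The fall of Igf2r at 0.1x was lost once the trend was taken out (−0.13 ± 0.12, adjusted p = 0.595), where 3.59% of all genes passed. It also missed the threshold in a fit of the compared groups alone (adjusted p = 0.0529) and when MASLD sample 3 or 4, or 0.1x sample 1 or 3, was left out (adjusted p of 0.0513 to 0.109). Airn, its antisense silencer, had 12, 8 and 11 counts in 0.1x samples 1, 3 and 4, and 3, 14 and 7 at 1x (samples 2, 4 and 5), against 10, 5 and 7 in MASLD livers. The difference of Airn was 0.72 ± 0.60 at 0.1x (interval −0.57 to 2.01) and −0.030 ± 0.62 at 1x (−1.34 to 1.28), so a doubling of Airn could be neither shown nor left out at either dose.

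Grb10 (ENSMUSG00000020176, chromosome 11, 11930508 to 12038683), an adaptor that dampens insulin receptor signalling, had 1.64, 0.708 and 1.57 CPM in 0.1x samples 1, 3 and 4, and 1.22, 1.51 and 1.51 CPM at 1x (samples 2, 4 and 5), against 1.53, 1.49 and 1.19 CPM in untreated MASLD livers (samples 3, 4 and 5). The drug and MASLD samples overlapped, with 0.1x sample 3 alone far below. The difference was −0.10 ± 0.32 at 0.1x (interval −0.78 to 0.57) and 0.0079 ± 0.31 at 1x (−0.66 to 0.67). Both intervals lay within a halving and a doubling.

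Cdkn1c (ENSMUSG00000037664, chromosome 7, 143458339 to 143461050), the cyclin-dependent kinase inhibitor p57, had 2.48, 2.46 and 2.03 CPM in 0.1x samples 1, 3 and 4, and 1.49, 2.11 and 1.72 CPM at 1x (samples 2, 4 and 5), against 1.86, 2.03 and 1.56 CPM in untreated MASLD livers (samples 3, 4 and 5). The 0.1x samples lay narrowly above the MASLD samples, and the 1x samples were spread across them. Neither difference passed, at 0.36 ± 0.22 for 0.1x (interval −0.12 to 0.83, adjusted p = 0.291) and −0.037 ± 0.22 for 1x (−0.51 to 0.44, adjusted p = 0.966). Its antisense silencer Kcnq1ot1 had 0 to 5 counts in every library. The annotation also places an antisense gene, Gm44732, over 625 exonic bases of Cdkn1c, where reads of the pair cannot be told apart.

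H13 (ENSMUSG00000019188, chromosome 2, 152669461 to 152708670) codes for signal peptide peptidase, and was the most abundant member per length, at 13.9 ± 0.302 CPM per kilobase in MASLD livers (SD, n = 3). It had 175, 110 and 166 CPM in 0.1x samples 1, 3 and 4, and 124, 122 and 145 CPM at 1x (samples 2, 4 and 5), against 126, 122 and 121 CPM in untreated MASLD livers (samples 3, 4 and 5). At 0.1x 2 samples were high and sample 3, the library with the strongest trend, was below MASLD. The difference at 0.1x was 0.29 ± 0.15 (interval −0.027 to 0.60, adjusted p = 0.198). With the trend removed H13 was higher at 0.1x than in MASLD by 0.59 ± 0.11 (adjusted p = 0.0194) and lower at 1x than at 0.1x by −0.47 ± 0.11 (adjusted p = 0.0310). Without 0.1x sample 3 it also passed, at 0.47 (adjusted p = 0.0226) and −0.39 (adjusted p = 0.0380).

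Mcts2, a paternally expressed retrogene within an intron of H13, whose methylation state is linked to which H13 transcript ends are used, had 5.82, 6.01 and 5.57 CPM in 0.1x samples 1, 3 and 4, and 3.30, 4.25 and 4.52 CPM at 1x (samples 2, 4 and 5), against 3.11, 4.15 and 4.11 CPM in untreated MASLD livers (samples 3, 4 and 5). All 0.1x samples were above the rest. Mcts2 rose at 0.1x by 0.61 ± 0.18 (edgeR adjusted p = 0.0420), which was lost with the trend removed (0.10 ± 0.17, adjusted p = 0.790) and in 8 of 12 runs with a library left out, among them each MASLD and each 0.1x library (adjusted p over the 8 from 0.0509 to 0.148). Counts per gene do not tell H13 transcripts apart, and 760 exonic bases of H13 overlap Gm26841 on the opposite strand, where the same limit holds as for Zrsr1 and Commd1.

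**Figure D3:**
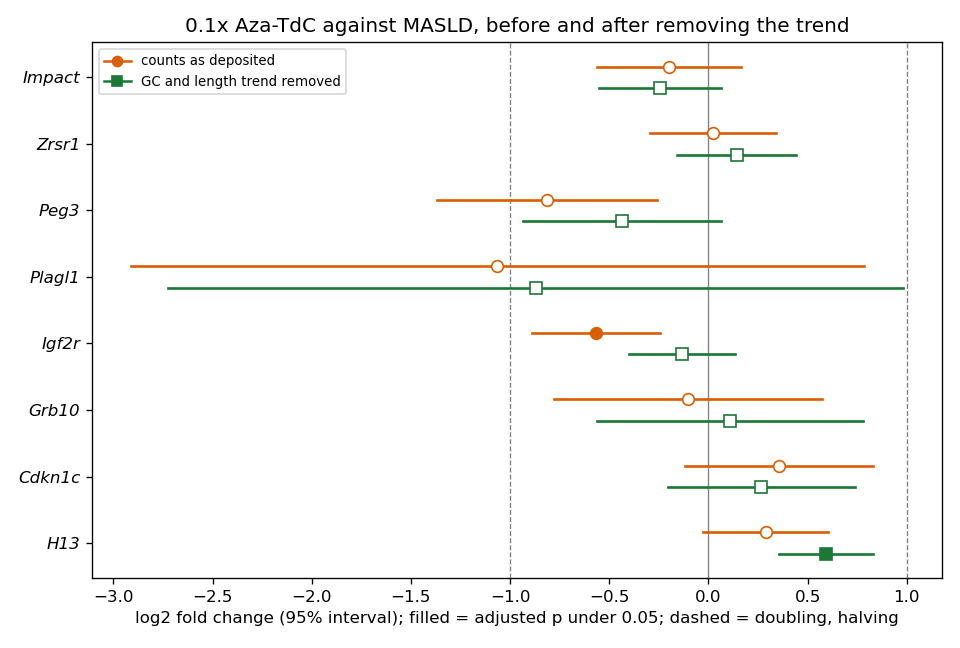
Log2 fold changes at 0.1x Aza-TdC against MASLD with 95% intervals, from the counts as deposited (circles) and after the trend with GC and length was taken out (squares); filled symbols passed an adjusted p under 0.05. Igf2r passed as deposited (−0.57) and not with the trend removed (−0.13), and H13 passed with it removed (0.59) and not as deposited (0.29).

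With the trend removed the number of members that passed was 1 of 8 at 0.1x (H13) against 3.59% of all genes, 0 of 8 at 1x against 4.33%, 1 of 8 between the doses (H13) against 4.90%, and 4 of 8 on the diet against 29.2%. The upper ends at 0.1x stayed below a doubling in 8 of 8 members and at 1x in 7 of 8, all but Plagl1. As above, this bears on release through the control region for Impact, Zrsr1, Peg3 and Plagl1 only, and as a limit on total RNA.

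On the MASLD diet without drug Peg3, Impact and Grb10 were higher and H13 was lower than on the standard diet. In number, 4 of 8 tested members passed in MASLD against SD, 3 higher and 1 lower, where 29.5% of all genes passed (15.6% higher and 13.9% lower). The comparisons of drug and of diet share the MASLD libraries, and the difference between the effects was not tested. The median log2 fold change of the 8 was 0.63, beside 0.029 over all genes. Peg3 had 1.86, 2.49 and 2.70 CPM in MASLD livers against 0.443, 0.411 and 0.291 CPM in SD livers, far apart, and rose by 2.62 ± 0.30 (edgeR adjusted p = 1.9e-05). Impact had 12.5, 12.8 and 10.6 CPM in MASLD livers against 3.34, 4.72 and 4.07 CPM in SD livers, and rose by 1.56 ± 0.18 (adjusted p = 2.0e-05). Both passed in 12 of 12 runs with a library left out, and every drug sample also lay above every SD sample for both genes.

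Grb10 rose on the diet, with 1.53, 1.49 and 1.19 CPM in MASLD livers against 0.512, 0.760 and 0.698 CPM in SD livers and no overlap. The rise was 1.09 ± 0.33 (edgeR adjusted p = 0.0247), and the call ended when SD sample 3 or 5, or MASLD sample 3 or 4, was left out (adjusted p of 0.0585 to 0.0749). H13 fell, with 126, 122 and 121 CPM in MASLD livers against 189, 171 and 169 CPM in SD livers, also without overlap. The change was −0.52 ± 0.15 (adjusted p = 0.0173), and the call ended when MASLD sample 4 or 5 was left out (adjusted p of 0.0542 and 0.0516). Igf2r (0.17 ± 0.15), Cdkn1c (−0.036 ± 0.22), Zrsr1 (−0.23 ± 0.15) and Plagl1 (1.23 ± 0.88) did not pass.

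**Figure D4:**
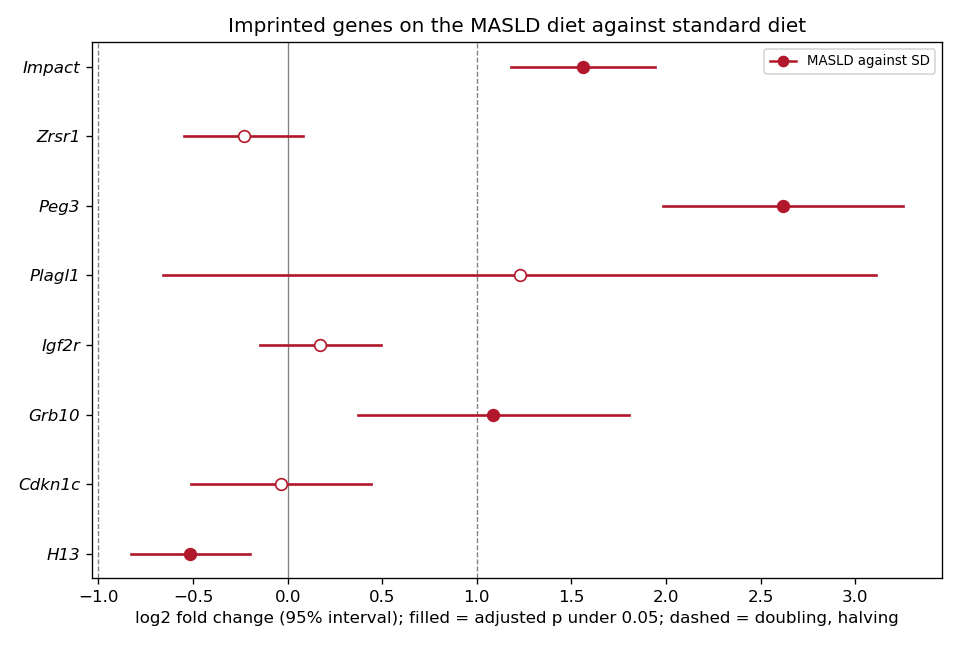
Log2 fold changes of the 8 tested members in MASLD livers against SD livers, without drug, with 95% intervals; filled symbols passed an adjusted p under 0.05 and dashed lines mark a halving and a doubling. Peg3 (2.62), Impact (1.56) and Grb10 (1.09) were higher and H13 (−0.52) was lower on the MASLD diet.

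Markers of liver cell types moved with the diet too. In MASLD against SD 8 of 8 hepatocyte markers were lower, where 13.9% of all genes were. Higher were 8 of 9 markers of stellate cells and fibroblasts, 7 of 8 of monocyte-derived macrophages, 6 of 8 of Kupffer cells, 5 of 8 of endothelial cells and 4 of 6 tested cholangiocyte markers, where 15.6% of all genes were. With the trend removed 7 of 8 hepatocyte markers were lower, and 6 of 8 endothelial and 3 of 6 cholangiocyte markers were higher, with the other 3 counts as before. Spp1 is on both the macrophage and the cholangiocyte list, and its rise on the diet (2.35) is counted in both. Summed stellate and fibroblast markers held 222 to 340 CPM in MASLD livers and 121 to 144 CPM in SD livers. Summed cholangiocyte markers held 43.6 to 155 CPM in MASLD livers and 16.2 to 26.6 CPM in SD livers.

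Under the drug, markers of monocyte-derived macrophages held 135 to 158 CPM at 0.1x and 74.7 to 91.5 CPM at 1x, against 104 to 281 CPM in untreated MASLD livers. At 1x 2 of 8 were lower than in MASLD, where 3.11% of all genes passed in either direction. The median log2 fold change over the macrophage list was −1.61 at 1x. Kupffer cell markers held 305 to 352 CPM at 0.1x and 143 to 283 CPM at 1x, against 259 to 381 CPM in MASLD livers. Of these 4 of 8 were lower at 1x than at 0.1x, where 13% of all genes passed in either direction, and 0 with the trend removed. Against MASLD, Marco was higher at 1x (1.77, edgeR adjusted p = 0.0488) and also passed with the trend removed (1.79). Vsig4 was lower at 1x (−1.08) and Adgre1 at 0.1x (−0.92), and neither passed with the trend removed. The summed cholangiocyte level was 29.7 to 48.0 CPM at 0.1x and 25.9 to 30.1 CPM at 1x, with 1 of 6 lower at each dose. At 1x that marker was Spp1 (−1.79), which is also on the macrophage list and among the 2 lower there. Stellate and fibroblast markers held 162 to 251 CPM at 0.1x and 152 to 194 CPM at 1x, with 1 of 9 lower at each dose, and 0 at 0.1x with the trend removed. Endothelial markers had 1 of 8 lower at 0.1x, and 0 with the trend removed. Among all genes 7.09% were lower and 6.08% higher at 0.1x. Whether any list exceeded the shares of all genes was not tested. Proliferation markers held 27.1 to 36.0 CPM at 0.1x and 34.3 to 43.6 CPM at 1x, against 24.1 to 26.2 CPM in MASLD livers. At each dose 1 of 8 was higher, Tk1 (0.95 at 0.1x and 1.45 at 1x), while the median log2 fold change of the list was −0.42 at 0.1x and −0.92 at 1x. In SD livers the proliferation list held 35.7 to 54.4 CPM. In MASLD against SD 4 of its markers were higher and 2 lower, Tk1 among the lower (−1.77), where 15.6% and 13.9% of all genes were. With the trend removed 1 was higher and 2 lower. No list had a marker at 0 in any group. Their part in the changes of H19, Peg3, Impact and Grb10 was not tested.

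In order of mean level, Peg3 stood highest in MASLD, then 1x, then 0.1x, then SD. Neighbours overlapped except 0.1x and SD. Impact was ordered MASLD, 0.1x, 1x and SD, where the last step alone had no overlap. Igf2r was ordered MASLD, SD, 1x and 0.1x, where the last step alone had no overlap. For H19 the order was MASLD, 1x, 0.1x and SD, with no overlap at the upper 2 steps. All neighbouring groups overlapped for Meg3, Grb10, Cdkn1c, Zrsr1, H13 and Plagl1.

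The genes whose level followed a member most closely over the 12 libraries were taken by the smallest root mean square difference of centred log2 CPM, over tested genes with a mean of at least 1 CPM. For Peg3 they were Enc1 (0.212), Cdh18 (0.252) and Scd1 (0.293), where Peg3 itself varied by 0.944. For Impact they were Dcbld1 (0.190), Acss3 (0.201) and Hilpda (0.206), where Impact varied by 0.631. For Igf2r they were Ssh1 (0.103), Apob (0.116) and Sh3d19 (0.130), where Igf2r varied by 0.269. Grb10 was followed by 1190002N15Rik (0.230), Abhd8 (0.237) and Rnf145 (0.249), and H13 by Oxa1l (0.0884), Stk11 (0.0992) and Acy3 (0.0995).

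Among 70 other imprinted genes, 36 were tested and 8 had no count in any library. At 0.1x against MASLD 2 of 36 rose, Commd1 and Mcts2 as above, and 0 fell, where 6.08% of all genes were higher and 7.09% lower. With the trend removed 2 rose and 1 fell, against 1.63% and 1.96% of all genes. They were Commd1, Gnas, which codes for a G protein subunit (0.48 ± 0.11, adjusted p = 0.0379), and Pon3, a lactonase gene (−0.41 ± 0.091, adjusted p = 0.0312). Gnas and Pon3 did not pass as deposited (0.28 and −0.14), and these genes were named after their values were seen. At 1x 0 rose and 1 fell, where 3.11% of all genes passed in either direction. It was Tnfrsf23, a decoy receptor gene of the cluster that holds Cdkn1c. Tnfrsf23 had 34, 14 and 14 counts at 1x, against 65, 62 and 49 in untreated MASLD livers, and changed by −1.70 ± 0.38 (edgeR adjusted p = 0.0274). The call ended when MASLD sample 3 or 4, or 1x sample 4 or 5, was left out (adjusted p of 0.102 to 0.134). On the diet 6 rose and 3 fell, where 15.6% of all genes were higher and 13.9% lower. With the trend removed 7 rose and 4 fell, against 15.4% and 13.8%. Pon3 was added to those that rose. Casd1 and Commd1 were added to those that fell, and Slc22a18 was lost from them. Tnfrsf23 was also the one with the smallest adjusted p there, higher in MASLD than in SD by 2.62 ± 0.42 (adjusted p = 0.00037), with 65, 62 and 49 counts in MASLD livers against 6, 8 and 10 in SD livers. Dcn, a matrix proteoglycan that is also among the stellate cell markers, rose by 0.72 ± 0.12, Herc3 by 1.05 ± 0.19 and Osbpl5 by 1.23 ± 0.28. Slc38a4, an amino acid transporter, changed by −0.68 ± 0.13 and Dhcr7, a cholesterol synthesis enzyme, by −1.15 ± 0.24.

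A list of 30 germline and early embryo genes that promoter methylation keeps silent in other tissues was read beside the imprinted genes. Of these, 14 had no count in any library, 24 had under 10 counts in every library and 4 were tested. At each dose 1 of the 4 was higher than in MASLD livers. Of all genes 6.08% were higher at 0.1x, and 3.11% passed in either direction at 1x. Rec8, the cohesin subunit of meiosis, rose at both doses. It had 7.47, 7.54 and 12.1 CPM in 0.1x samples 1, 3 and 4, and 11.6, 11.6 and 10.5 CPM at 1x (samples 2, 4 and 5), against 5.50, 3.54 and 4.32 CPM in untreated MASLD livers (samples 3, 4 and 5). Every drug sample was above every MASLD sample. The rise was 1.02 ± 0.23 at 0.1x (edgeR adjusted p = 0.0155) and 1.34 ± 0.23 at 1x (adjusted p = 0.00742). Once the trend was taken out these were 0.94 (adjusted p = 0.0352) and 1.33 (adjusted p = 0.00446). Leaving out MASLD sample 4 or 5 ended the call at 0.1x (adjusted p from 0.0568 to 0.0705), and leaving out MASLD sample 4 ended that at 1x (adjusted p = 0.0553). With the replicate numbers as a block neither rise passed (edgeR adjusted p = 0.0714 at 0.1x and 0.0850 at 1x). In SD livers Rec8 had 4.16, 2.28 and 3.63 CPM, so it was expressed without drug.

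The other 3 tested germline genes did not pass against MASLD at either dose. Hspa2, a heat shock protein of spermatocytes, was at 0.73 ± 0.21 at 1x (adjusted p = 0.0705) and −0.056 ± 0.21 at 0.1x (adjusted p = 0.885). Brdt, a testis bromodomain gene, was at 0.82 ± 0.40 at 0.1x (edgeR adjusted p = 0.179) and 0.68 ± 0.40 at 1x (edgeR adjusted p = 0.412). Both genes were expressed without drug. Mean Brdt was 1.02 CPM in SD livers, against 0.545 in MASLD livers, 0.961 at 0.1x and 0.872 at 1x. Mean Hspa2 was 3.65 CPM in SD livers, against 3.06 in MASLD livers, 2.95 at 0.1x and 5.09 at 1x. Smc1b, another meiotic cohesin gene, had 25, 11 and 5 counts at 0.1x and 10, 0 and 7 at 1x, against 5, 11 and 4 in MASLD livers. The 27 genes other than Rec8, Hspa2 and Brdt together held 16 to 32 counts per library at 0.1x and 15 to 28 at 1x, against 12 to 32 in MASLD livers and 15 to 29 in SD livers, so the groups overlapped at the floor.

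**Figure D5:**
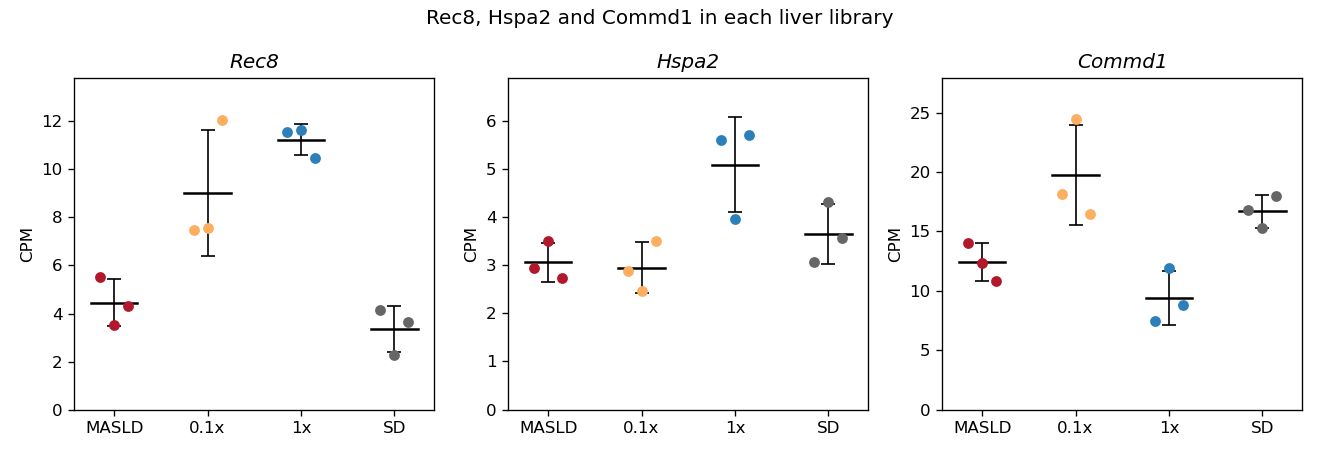
CPM of Rec8, Hspa2 and Commd1 in each library; points are libraries, lines are group means and bars are SD over 3 samples, and each panel has its own scale from 0. Rec8 lies between 7.47 and 12.1 CPM in the 6 drug libraries, above the 3 MASLD libraries at 3.54 to 5.50 CPM.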

How the data were processed

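Livers of 12 samples were grouped by the labels on diet and treatment. Stranded poly(A) libraries were made, per the labels' protocols, and reads were aligned with STAR 2.7.3a to mm10, per the submitters' processing notes. Neither the counting tool nor its strand setting is given in the sources used. The authors deposited whole-number counts per gene for 55471 IDs, of which 55230 matched GENCODE vM21. With these, edgeR 4.0.16 (R 4.3.3) was run on all 12 libraries: filterByExpr by group (minimum count 10), TMM factors, quasi-likelihood F tests (two-sided), Benjamini-Hochberg adjustment over 13866 genes, threshold 0.05. CPM uses TMM-scaled library sizes. Errors of CPM are SD (n = 3). Errors of log2 fold changes are SE, from the F statistic, with 95% intervals. Ratios of few counts have exact conditional intervals. The trend with GC and length was fitted per library by splines with 4 degrees of freedom and entered as offsets. Other settings were DESeq2 1.42.0, other factors and filters, fits of the compared groups alone, a replicate block, a stricter threshold and each library left out. The fits were tested on simulated data. Members and gene lists were chosen with earlier results of these data known. All members are named, other listed genes where they passed (at most 6 per comparison, by adjusted p) or as partners of a member's locus. For 1 sample the title and the library name gave different numbers, and the title was used.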

Additional observations from a re-analysis of the deposited data

Results flagged for a closer look

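For 3 genes beside the members the effect of the drug differed between the doses, by the test of 1x against 0.1x itself. They were 1 of 36 tested other imprinted genes, 1 of 4 tested germline genes and 1 of 8 tested genes that keep methylation in place. Of all genes 13% passed in this comparison, and whether any list differed from that share was not tested. Commd1 differed by −1.07 (edgeR adjusted p = 0.00574), higher than MASLD at 0.1x by 0.67 and at 1x at 9.39 ± 2.30 CPM against 12.4 ± 1.63 CPM in MASLD (SD, n = 3). Livers on the standard diet had 16.7 ± 1.37 CPM of it. Hspa2 differed by 0.79 (adjusted p = 0.0262), with 5.61, 3.96 and 5.71 CPM in the 1x samples against 2.88, 2.46 and 3.50 CPM in the 0.1x samples. The call ended when 0.1x sample 1 or 3, or 1x sample 2 or 5, was left out (adjusted p of 0.0622 to 0.119). Zfp445, a zinc finger protein that guards imprints, differed by 0.94 (adjusted p = 0.01001), with 90.8, 67.3 and 76.5 CPM in the 1x samples against 44.3, 48.1 and 29.7 CPM in the 0.1x samples. The call ended when 1x sample 2 was left out (adjusted p = 0.0645). Once the trend of counts with GC and length was taken out all 3 passed, at −1.17, 0.84 and 0.73, where 4.90% of all genes passed.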

How the results depend on the processing

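Of 698 log2 fold changes of members recomputed under other settings, 677 kept their side of the threshold, 6 newly passed, 15 no longer passed and 0 called values changed sign. The cause of the differences was not tested. Of the 8 members tested as deposited, 2 passed at 0.1x against MASLD with DESeq2 and with the filter at a mean of 1 CPM. The second was Peg3. With no filter and with a minimum count of 5, a setting chosen after the data were seen, 1 passed. H19 entered those 2 fits only through the MASLD libraries and is not counted. At 0.1x 0 passed with only the compared groups and at an adjusted p under 0.01. The same held with the replicate block and with the block and the trend removed. Between the doses 1 passed with the trend removed, and on the diet 2 passed at an adjusted p under 0.01. Over all genes 116, 91, 254 and 2254 passed under 0.01, in the order 0.1x, 1x, doses compared and diet. At 0.1x 1826 passed, and 498 with the trend removed. At 1x 431 passed, and 825 with DESeq2, 1131 with no filter and 1013 with only the compared groups. Between the doses 1802 passed, and 744 with only the compared groups and 680 with the trend removed.

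The replicate numbers did not pair the samples: deviations of same-numbered samples correlated at −0.215 to 0.0757 over 12 pairs, and 1 of 10 libraries correlated best with its own number. With the numbers as a replicate block 33 genes passed for 0.1x, 53 for 1x and 0 when the doses were compared, and with the trend also removed 2, 72 and 0.

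With each library left out in turn 382 to 1951 genes passed at 0.1x (594, 382 and 461 without MASLD sample 3, 4 and 5, 1145 without 0.1x sample 1), 83 to 661 at 1x (102 and 83 without MASLD sample 3 and 4, 661 without 0.1x sample 3, 148, 154 and 216 without 1x sample 2, 4 and 5), 210 to 1919 between the doses (1135 without 0.1x sample 1, 210 and 782 without 1x sample 2 and 5) and 2654 to 4837 on the diet (2654 without MASLD sample 4). Of the 8 members tested as deposited, 0 to 1, 0 to 0, 0 to 1 and 2 to 4 passed, in the same order. H19 entered these fits, since the filter asks for fewer libraries once a group has 2, and is not counted. Depth limits Meg3, Plagl1 and H19, with at most 27 counts in any library.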

Other observations

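Genes that keep methylation in place were read beside the members. Of 10 listed, 8 were tested, and 1 fell at 0.1x against MASLD, Dnmt1, where 13.2% of all genes passed. Dnmt1 had 6.20, 5.30 and 6.68 CPM at 0.1x against 8.78, 8.82 and 9.75 CPM in MASLD livers, a change of −0.59 (edgeR adjusted p = 0.0336) that was −0.24 with the GC and length trend removed (adjusted p = 0.385). The call ended when any 1 MASLD library, or 0.1x sample 1 or 3, was left out (adjusted p of 0.0666 to 0.109). In SD livers Dnmt1 had 6.00, 7.31 and 5.96 CPM, which overlapped the 0.1x samples. It was higher in MASLD than in SD livers by 0.50 ± 0.17 (adjusted p = 0.0335), against 0.30 with the trend removed (adjusted p = 0.154), and the call ended when any 1 MASLD library, or SD sample 3 or 5, was left out (adjusted p of 0.0664 to 0.115). At 1x 0 of 8 passed in edgeR. Zfp57, which binds methylated imprint control regions, was at the floor, with 6, 0 and 5 counts at 0.1x and 4, 0 and 4 at 1x, against 5, 4 and 8 in MASLD livers and 1, 0 and 0 in SD livers. Trim28, the co-repressor that both zinc finger proteins recruit, was lower in MASLD livers than in SD livers by −0.38 ± 0.13 (adjusted p = 0.0354), and the call ended when any 1 MASLD library, or SD sample 4 or 5, was left out (adjusted p of 0.0573 to 0.135).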
